A study of Mus musculus with 6 samples.

Results

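Collagen genes were compared between cortical neural progenitors and the neurons they give rise to. The members were the genes with a probe set annotated to a single symbol of the form Col, a number, a and a number. Where a gene had several such probe sets, the one brightest on average was used. This gave 44 collagen genes, the same number as RefSeq lists by such symbols in the mouse, among 19938 genes measured. Total RNA came from C57BL/6J mouse brain cells, sorted by fluorescence with a dual reporter. The 3 GFP+ samples are labelled cortical neural progenitors and the 3 RFP+ samples neuronal progeny at the differentiated stage, and each was run on 1 Affymetrix whole-transcript array. Cortex is named as the origin of GFP+ cells, but RFP+ cells are labelled with brain alone, so region and cell type cannot be told apart. Neither the age of the mice nor the promoter behind either reporter is given in the sources used here. Replicates are not stated to be separate animals, and p-values therefore measure the spread between these samples only.

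Collagens are secreted proteins whose chains wind around each other into a rope-like helix, and chains of particular types assemble only with particular partners. Basement membrane collagens form sheets under epithelia and around blood vessels, and in the developing cortex a basement membrane lies beneath the pia, where the end feet of radial glia attach. Fibrillar collagens build the fibres of cartilage, bone, tendon and skin. Others decorate fibrils, form beaded filaments or span the cell membrane.

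The labels were checked against marker genes. All 11 markers of radial glia and progenitors were higher in GFP+, Vim 3.66-fold and Eomes 2.83-fold, and all 12 neuronal markers were higher in RFP+, Tubb3 1.91-fold and Neurod6 3.26-fold. Array medians of the intensity ran from 210.31 to 221.1, with no array standing apart on that measure. Olfactory receptor genes, which these cells are not known to use, guided the level near background. Their 95th percentile lay between 201.515 and 224.128 per array (1015 genes), and a gene under it on all 3 arrays of a group is called near background there. Probe sets differ in how they bind, so levels are compared between arrays and not between genes, except to choose a gene's probe set and the brightest genes of a marker list.

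Among the 44 collagen genes, 14 (31.8%) were higher in the GFP+ progenitors and 4 (9.09%) in the RFP+ neurons. A gene counts as changed here at an adjusted p under 0.05 in limma's moderated test of log2(intensity + 16), with Benjamini-Hochberg adjustment over all genes. By the same rule 13.8% of all genes were higher in GFP+ and 16.2% were higher in RFP+, 30% in either direction. The 14 differed between 2.08-fold and 8.24-fold. Each was at least 2-fold higher in GFP+, which 7% of all genes were. The 4 higher in RFP+ differed between 1.46-fold and 2.33-fold. The median log2 difference, GFP+ minus RFP+, was 0.18 over the collagens and -0.08 over all genes. Values of the groups did not overlap for 22 of the 44 collagens, against 43.9% of all genes. Because these are whole populations of sorted cells, fewer cells of a type and less RNA per cell cannot be told apart.

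Most of the changed collagens were near background in at least 1 group. Of all 19938 genes, 7728 were near background in GFP+, 7783 in RFP+ and 6647 in both. Of the 14 higher in GFP+, 12 were near background in RFP+, and Col4a6 and Col14a1 were near background in both groups. The 4 higher in RFP+ were all near background in GFP+, and 3 of them also in RFP+. Folds on the log2(intensity + 16) scale understate changes from so low a level and move with the offset: Col4a5 differed 4.77-fold with an offset of 16, 5.71-fold with 1 and 3.31-fold with 64.

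**Figure D1:**
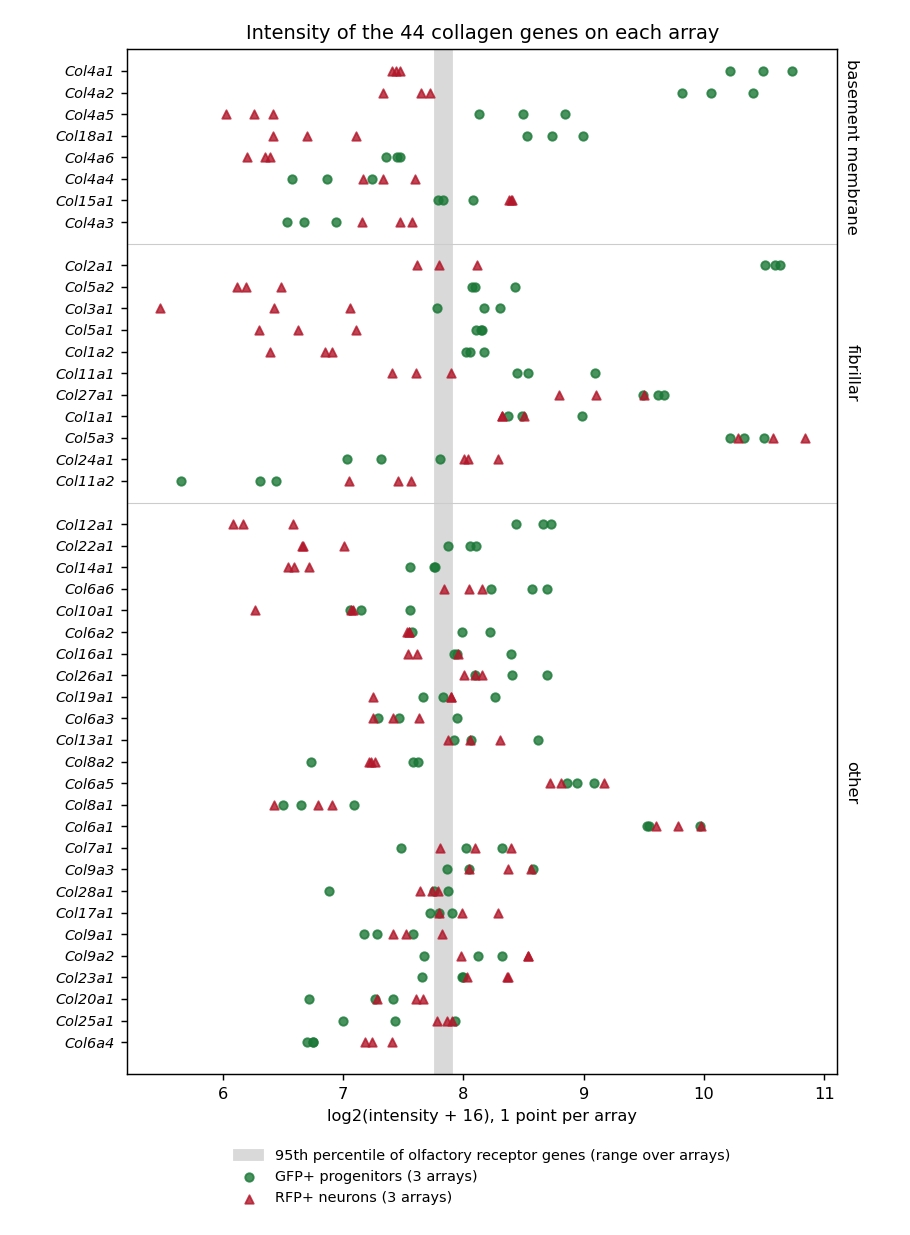
Intensity of each of the 44 collagen genes, as log2(intensity + 16), with 1 point per array (circles GFP+, triangles RFP+, 3 arrays each) and genes grouped by class. The grey band spans the 95th percentile of olfactory receptor genes on the 6 arrays, and for 13 of the 14 genes higher in GFP+ all RFP+ points lie to its left or within it, Col2a1 being the other.

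The 3 classes of collagen differed in their counts. Among the 8 basement membrane collagens 5 were higher in GFP+ and 1 in RFP+, with a median log2 difference of 1.56. Among the 11 fibrillar collagens 6 were higher in GFP+ and 2 in RFP+, with a median of 1.06. Among the 25 other collagens 3 were higher in GFP+, a share close to the 13.8% of all genes, and 1 in RFP+, with a median of 0.06. The shares higher in RFP+ were 12.5%, 18.2% and 4% in this order of classes, against 16.2% of all genes. Those of the basement membrane and fibrillar classes were close to that of all genes. Groups did not overlap for 7 of the 8, 8 of the 11 and 7 of the 25 genes of these classes, against 43.9% of all genes, so that the other collagens lay below that share. No test between the classes was made.

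**Figure D2:**
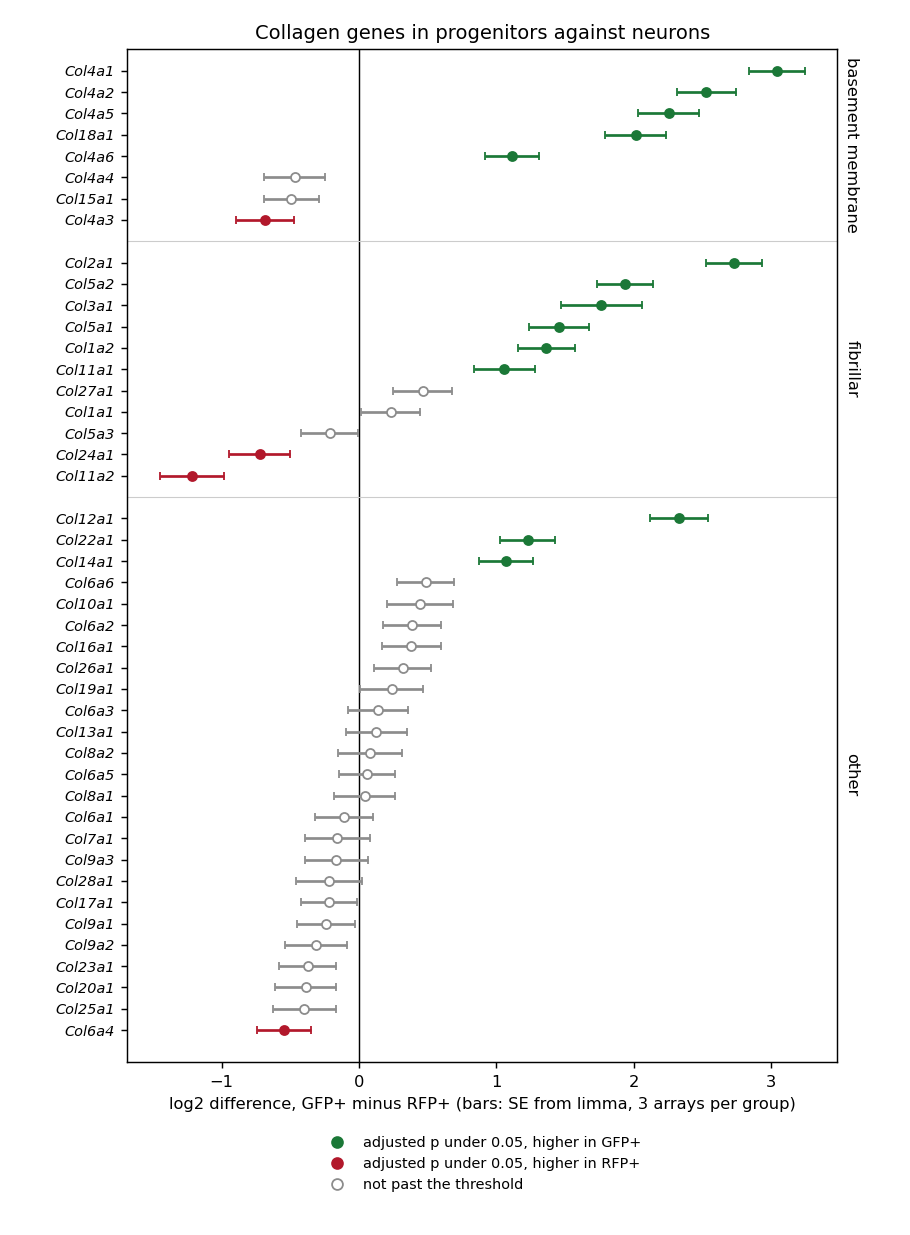
Log2 difference in intensity, GFP+ minus RFP+, of each collagen gene with its standard error from limma (3 arrays per group). Filled points passed an adjusted p of 0.05, and they make up most of the upper ends of the basement membrane and fibrillar classes, while 21 of the 25 other collagens are open points near 0.

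Col4a1 and Col4a2 encode the chains of the type IV network found in nearly all basement membranes. Col4a1 read 1173, 1424 and 1684 on the GFP+ arrays and 153, 157 and 162 on the RFP+ arrays. Its progenitor values were all far above the neuronal ones, which were near background, and the groups did not overlap. The difference was 3.04 ± 0.21 on the log2 scale (SE), 8.24-fold, with an adjusted p of 2.52e-09. Col4a2 read 886, 1052 and 1344 in GFP+ and 145, 195 and 184 in RFP+. Again every GFP+ array was high and every RFP+ array was near background. Col4a2 differed 5.78-fold (log2 2.53 ± 0.22, adjusted p = 2.79e-08). In both genes GFP+ replicate 1 was the lowest progenitor array.

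Col4a5 and Col4a6 encode chains that assemble with each other in some basement membranes. Col4a5 read 264, 445 and 344 in GFP+ and 60.5, 49.3 and 69.5 in RFP+. The groups lay well apart, 4.77-fold (log2 2.25 ± 0.22, adjusted p = 1.5e-07). Col4a6 read 148, 161 and 159 in GFP+ and 67.9, 57.5 and 65.7 in RFP+. The groups did not overlap, although all 6 values were under the background guide. Col4a6 differed 2.16-fold (log2 1.11 ± 0.20, adjusted p = 1.81e-04).

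Col4a3 and Col4a4 encode chains best known from the filtering membrane of the kidney, where they assemble with the Col4a5 chain. Col4a3 read 86.0, 76.5 and 107 in GFP+ and 126, 162 and 174 in RFP+. Here the neuronal arrays were the higher ones, without overlap, and all 6 values were under the background guide. The difference was -0.69 ± 0.21 (1.61-fold higher in RFP+, adjusted p = 0.0174). Leaving out GFP+ replicate 2 (adjusted p = 0.0641), RFP+ replicate 2 (0.0623) or RFP+ replicate 3 (0.0765) ended this call. Col4a4 read 101, 135 and 79.5 in GFP+ and 128, 177 and 145 in RFP+. Its groups overlapped, all 6 values were under the guide, and the difference of -0.47 ± 0.22 did not pass (adjusted p = 0.116). It passed without GFP+ replicate 2 (adjusted p = 0.0464) and with the replicate number as a random block (0.0416).

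Col18a1 and Col15a1 encode the multiplexins, basement membrane collagens that carry heparan sulfate or chondroitin sulfate chains, and the end fragment of the Col18a1 product is endostatin. Col18a1 read 354, 494 and 411 in GFP+ and 69.5, 122 and 87.9 in RFP+. The progenitor arrays were all above the guide and the neuronal arrays all under it. The difference was 4.04-fold (log2 2.01 ± 0.22, adjusted p = 6.39e-07). Col15a1 read 255, 212 and 206 in GFP+ and 318, 320.4 and 323 in RFP+. The neuronal arrays were higher without overlap, but the difference of -0.49 ± 0.20 did not pass (adjusted p = 0.0671). With the replicate number as a fixed block its adjusted p was 0.0365, and as a random block 0.0211. The number of basement membrane collagens higher in RFP+ was then 2 and 3, in place of 1.

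Several type IV genes stand back to back on a chromosome, and their starts are shown because both genes of such a pair can be read beside their values. Sequences and positions are those of RefSeq on the mouse build GRCm38.p6, printed from 5′ to 3′, and capitals mark the GC box (GGGCGG, or CCGCCC on the other strand). The listed transcripts of Col4a1, on the minus strand, and Col4a2, on the plus strand, overlap over their first 22 bases. The overlap is chr8:11312805-11312826, printed here on the plus strand, and the Col4a1 transcript begins with the reverse complement of these letters. Col4a5 and Col4a6 start 1342 bases apart on the X chromosome, and for each the 30 bases before the transcript start are given, on that gene's own strand, from chrX:141475389-141475418 for Col4a5 (plus) and chrX:141474077-141474106 for Col4a6 (minus).
Col4a1 and Col4a2: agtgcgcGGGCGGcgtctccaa
Col4a5: GGGCGGtgcagggaagagagcgaggaaagt
Col4a6: caggcagccCCGCCCcgtccccctccattc
Each of these stretches holds the GC box once, but they differ in kind and length, and that of Col4a5 begins at its GC box. In the 250 bases before the start, Col4a1 had 0 GC boxes, Col4a2 had 2, and Col4a5 and Col4a6 had 1 each. Both genes of each of these pairs were higher in GFP+, while of Col4a3 and Col4a4, which also neighbour each other, Col4a3 was higher in RFP+ and Col4a4 did not pass. A match of letters is a description of the window and says nothing of what binds there.

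**Figure D3:**
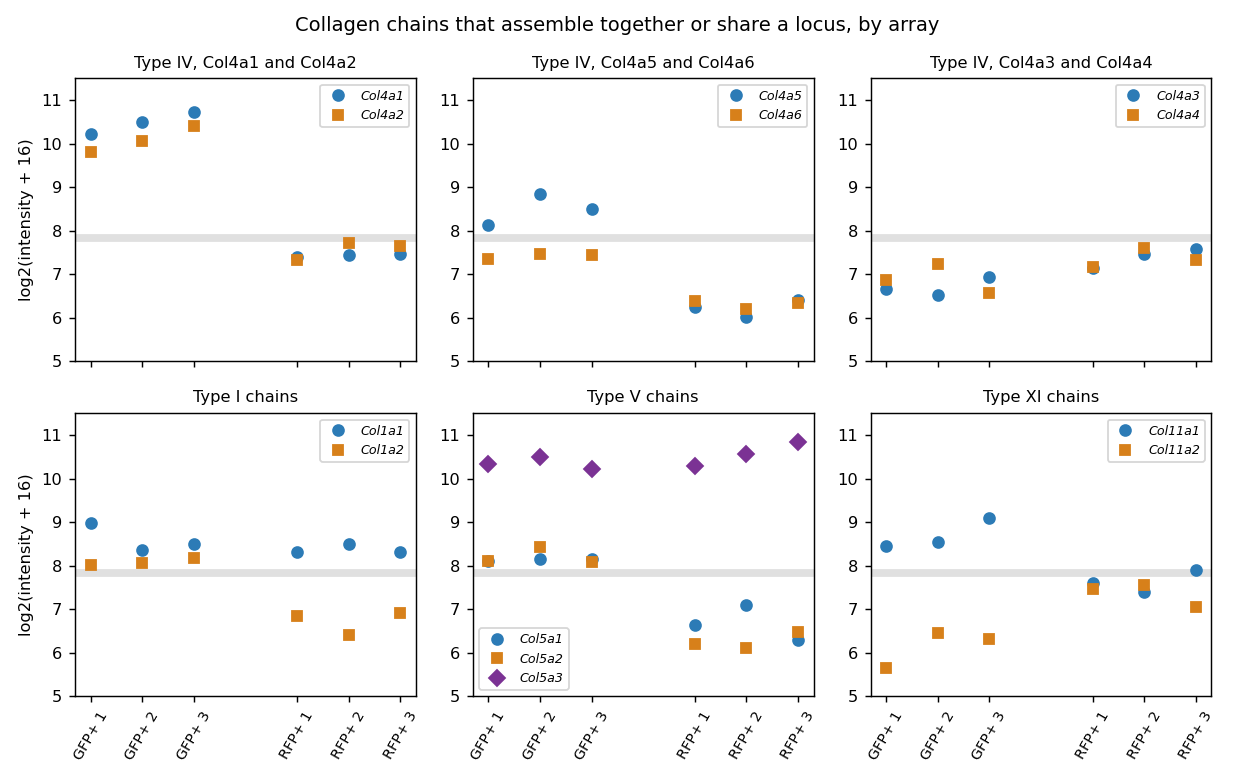
Log2(intensity + 16) of collagen chains that assemble together or share a locus, on each of the 3 GFP+ and 3 RFP+ arrays, with the grey band at the 95th percentile of olfactory receptor genes. Col4a1 with Col4a2 and Col4a5 with Col4a6 are higher in GFP+ together, whereas only Col1a2 of the type I chains passed the test, the Col5a3 groups overlap while those of Col5a1 and Col5a2 do not, and Col11a1 and Col11a2 move in opposite directions.

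Of the fibrillar collagens, Col2a1 differed most. It encodes the main collagen of cartilage and read 1437, 1572 and 1523 in GFP+ and 206, 262 and 180.1 in RFP+. The 3 progenitor values were close together and far above the neuronal ones. The difference was 6.65-fold (log2 2.73 ± 0.21, adjusted p = 6.47e-09).

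Col5a1 and Col5a2 encode type V chains, which help set the diameter of type I fibrils. Col5a2 read 258, 329 and 254 in GFP+ and 57.1, 53.4 and 73.5 in RFP+. All progenitor values were above the guide and all neuronal values under it. Col5a2 differed 3.83-fold (log2 1.94 ± 0.21, adjusted p = 4.19e-07). Col5a1 read 259, 269 and 267 in GFP+ and 82.8, 122 and 63.0 in RFP+. The GFP+ arrays were nearly equal and the RFP+ arrays low. Col5a1 differed 2.74-fold (log2 1.46 ± 0.22, adjusted p = 3.33e-05). Col5a3, the remaining type V chain, read 1275, 1428 and 1172 in GFP+ and 1227, 1503 and 1814 in RFP+. Both groups were well above background, they overlapped, and the difference of -0.21 ± 0.21 did not pass (adjusted p = 0.462).

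Col3a1 encodes the chain of type III collagen, which binds the receptor Adgrg1 (also called Gpr56) at the cortical surface. It read 272, 204 and 299 in GFP+ and 28.5, 117 and 70.0 in RFP+. The progenitor arrays were higher without overlap, and RFP+ replicate 1 was the lowest of all. Col3a1 differed 3.40-fold (log2 1.77 ± 0.29, adjusted p = 9.48e-05). It neighbours Col5a2 on chromosome 1, and both were higher in GFP+.

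Type I collagen, the main collagen of bone and skin, is built from the products of Col1a1 and Col1a2. Col1a2 read 244, 249 and 273 in GFP+ and 99.4, 68.2 and 104 in RFP+. The groups lay apart, with the neuronal arrays near background. The difference was 2.58-fold (log2 1.36 ± 0.21, adjusted p = 3.6e-05). Col1a1, looked at as its partner after its values were seen, read 492, 315 and 343 in GFP+ and 304, 347 and 305 in RFP+. GFP+ replicate 1 was the highest array, the other 5 lay between 304 and 347, and the groups overlapped. The log2 difference was 0.23 ± 0.21 (adjusted p = 0.435), and 0.04 without GFP+ replicate 1.

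The type XI chains, minor components of cartilage fibrils, went in opposite directions. Col11a1, likewise singled out after its values were seen, read 333, 356 and 531 in GFP+ and 179, 154 and 222 in RFP+. Every progenitor array was above every neuronal one. Col11a1 was 2.08-fold higher in GFP+ (log2 1.06 ± 0.22, adjusted p = 0.00107). Col11a2 read 34.4, 71.0 and 63.4 in GFP+ and 159, 173 and 116 in RFP+. The neuronal arrays were higher, with all 6 values under the background guide. Col11a2 was 2.33-fold higher in RFP+ (log2 -1.22 ± 0.23, adjusted p = 4.39e-04).

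Col24a1, a minor fibrillar collagen known from developing bone and cortex, read 143, 208 and 115 in GFP+ and 241, 296 and 247 in RFP+. The neuronal values were all above the guide and the progenitor values all under it. The difference was 1.65-fold (log2 -0.72 ± 0.22, adjusted p = 0.0183). This call was lost without GFP+ replicate 1 (adjusted p = 0.0527), GFP+ replicate 3 (0.082) or RFP+ replicate 2 (0.0786). Col27a1, another fibrillar gene of cartilage, read 769.5, 704 and 799 in GFP+ and 427, 709 and 533 in RFP+. The groups overlapped through RFP+ replicate 2, and the difference of 0.46 did not pass (adjusted p = 0.115). With the replicate number as a random block its adjusted p was 0.048.

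The 250 bases before the start are shown for 4 genes, Col18a1, Col1a2 and Col3a1 as members higher in GFP+ and Col24a1 as the member higher in RFP+ with values above background there. The windows are chr10:77166531-77166780 on the minus strand for Col18a1 (at the outermost of its listed starts), chr6:4505368-4505617 on the plus strand for Col1a2, chr1:45311288-45311537 on the plus strand for Col3a1 and chr3:145292222-145292471 on the plus strand for Col24a1, again from RefSeq on GRCm38.p6 and on the gene's own strand. Capitals mark the CCAAT box (CCAAT or ATTGG), the GC box (GGGCGG or CCGCCC) and the TATA box (TATAAA or TTTATA), searched on both strands, with 0 overlapping matches.
Col18a1: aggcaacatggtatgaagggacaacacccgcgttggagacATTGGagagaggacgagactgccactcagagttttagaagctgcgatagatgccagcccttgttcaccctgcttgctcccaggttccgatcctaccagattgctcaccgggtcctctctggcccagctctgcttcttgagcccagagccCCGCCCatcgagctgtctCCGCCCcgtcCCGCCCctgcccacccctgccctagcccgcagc
Col1a2: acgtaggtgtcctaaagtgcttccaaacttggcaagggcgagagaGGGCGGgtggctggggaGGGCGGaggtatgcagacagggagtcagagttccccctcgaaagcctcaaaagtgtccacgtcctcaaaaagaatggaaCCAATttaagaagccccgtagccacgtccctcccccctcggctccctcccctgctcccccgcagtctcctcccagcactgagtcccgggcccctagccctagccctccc
Col3a1: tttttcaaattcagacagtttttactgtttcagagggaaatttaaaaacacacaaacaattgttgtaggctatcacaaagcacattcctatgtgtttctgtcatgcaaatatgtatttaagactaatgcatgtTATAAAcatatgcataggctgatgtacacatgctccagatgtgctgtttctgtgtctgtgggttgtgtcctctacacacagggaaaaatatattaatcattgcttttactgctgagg
Col24a1: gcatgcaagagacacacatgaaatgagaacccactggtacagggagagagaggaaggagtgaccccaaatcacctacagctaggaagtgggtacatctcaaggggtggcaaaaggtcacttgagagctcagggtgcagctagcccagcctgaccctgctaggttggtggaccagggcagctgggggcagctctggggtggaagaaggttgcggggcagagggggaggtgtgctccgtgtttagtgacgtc
Col18a1 holds 3 GC boxes, at 61, 43 and 33 bases before the start, and a CCAAT box at 210. Col1a2 holds a CCAAT box at 109 bases and GC boxes at 205 and 188. Col3a1, the window poorest in G and C of the 4 (35.2%, against 58.0% to 62.0%), holds a TATA box at 117 bases, and the Col24a1 window holds none of these letters. Such windows were at hand for 35 of the 44 genes, 38 windows in all. The GC box stood in 57.9% of them and in 32.7% of all 32851 mouse windows of this length. The CCAAT box stood in 34.2% against 33.8%, and the TATA box in 13.2% against 12.4%.

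Among the other collagens, the genes higher in GFP+ were 3 of the 9 that bind to the surface of fibrils. Col12a1 read 331, 389 and 409 in GFP+ and 51.7, 56.0 and 80.1 in RFP+. All progenitor arrays were above the guide and all neuronal arrays far under it. The difference was 5.03-fold (log2 2.33 ± 0.21, adjusted p = 4.97e-08). Col22a1, known from tissue junctions such as that of muscle and tendon, read 259, 218 and 249 in GFP+ and 85.3, 112 and 85.9 in RFP+. The groups lay apart, 2.34-fold (log2 1.23 ± 0.20, adjusted p = 8.93e-05). Col14a1, closely related to Col12a1, read 199.8, 172 and 201 in GFP+ and 80.3, 77.3 and 89.4 in RFP+. It differed 2.10-fold without overlap (log2 1.07 ± 0.20, adjusted p = 2.83e-04), with all 6 values under the guide.

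The remaining fibril-associated genes did not pass. Col16a1 had a log2 difference of 0.38, Col19a1 of 0.24, Col9a3 of -0.16, Col9a1 of -0.24, Col9a2 of -0.31 and Col20a1 of -0.39. The type IX genes encode chains that coat cartilage fibrils, and each of them had overlapping groups.

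The type VI genes encode beaded filaments that lie close to cells. Col6a4 read 91.4, 91.8 and 87.9 in GFP+ and 129, 154 and 135 in RFP+. The neuronal arrays were higher without overlap, and all 6 values were under the background guide. The difference was 1.46-fold (log2 -0.54 ± 0.20, adjusted p = 0.0424), and leaving out any of the 6 arrays raised the adjusted p to between 0.0678 and 0.152. The other 5 type VI genes did not pass. Col6a6 read 399, 364 and 284 in GFP+ and 213, 269 and 249 in RFP+, higher in GFP+ without overlap but not past the test (0.48, adjusted p = 0.0857). It passed without GFP+ replicate 3 (adjusted p = 0.0407) and with the replicate number as a random block (0.0315). Col6a2 had a difference of 0.39, Col6a3 of 0.14, Col6a5 of 0.06 and Col6a1 of -0.11.

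The 4 transmembrane collagens did not pass in limma, either at an adjusted or at an unadjusted p of 0.05. Col13a1 had a log2 difference of 0.13, Col17a1, a part of the anchoring plaques of skin, of -0.22, Col23a1 of -0.37 and Col25a1 of -0.40. Col25a1 is made by neurons and its product is found in amyloid plaques. It read 228, 156 and 112 in GFP+ and 224, 204 and 217 in RFP+, so that GFP+ replicate 1 was as high as the neuronal arrays. Without that array Col25a1 passed as higher in RFP+ (log2 -0.64, adjusted p = 0.044). The short-chain genes Col10a1, Col8a2 and Col8a1 had differences of 0.45, 0.08 and 0.04, with all their values under the guide. Col26a1, Col7a1, which makes the anchoring fibrils of skin, and Col28a1 had differences of 0.32, -0.16 and -0.22.

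In all, the 21 other collagens that did not pass had adjusted p-values between 0.0857 and 0.907, and 5 of them were near background in both groups.

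Markers of some other cell types also differed between the groups. Of 14 endothelial markers 13 were higher in GFP+ (median log2 difference 2.22), and their summed intensity was 2933 to 8719 on the GFP+ arrays and 1099 to 1347 on the RFP+ arrays. Of 13 markers of pericytes and other mural cells 9 were higher in GFP+ (median 2.33), with sums of 6621 to 8399 and 2004 to 2148. On this list Acta2, Myh11, Tagln and Des did not pass, with log2 differences of -0.30, -0.26, -0.21 and 0.44. Of 15 markers of fibroblasts and meninges 6 were higher in GFP+ (median 0.13), with sums of 1726 to 2066 and 1272 to 1461. Of 6 markers of the oligodendrocyte lineage 5 were higher in GFP+ (median 1.95), with sums of 1461 to 2159 and 417 to 469. For comparison with these 4 lists, 13.8% of all genes were higher in GFP+. Of the brightest markers of each list, the mural genes Rgs5 and Notch3 were 12.8-fold and 7.71-fold higher in GFP+ and Olig1 of the oligodendrocyte lineage was 6.88-fold higher. Lhfpl3 of the same lineage (0.54, adjusted p = 0.0557), Slc22a6 (-0.21) and Twist2 (-0.35) of the fibroblast list, Cd68 (0.41) and Csf1r (-0.51) of the microglial list and Kl (0.24) and Ttr (-1.70) of the choroid plexus list did not pass. The fibroblast markers higher in GFP+ were Foxc1 (8.09-fold), Foxd1 (4.17-fold), Alpl (4.16-fold), Tbx18 (1.83-fold), Ogn (1.53-fold) and Crabp2 (1.5-fold), all 6 named whatever their brightness. Foxd1, Tbx18, Ogn and Crabp2 were under the background guide on all 6 arrays, as were Lum, Dcn, Fmod, Aldh1a2, Islr and Slc6a13, which did not pass, 10 of the 15 in all. Of 12 markers of microglia and macrophages 1 (8.33%) was higher in RFP+ and the others did not pass. Likewise 1 of 7 markers of the choroid plexus (14.3%) was higher in RFP+ and the others did not pass. Neither share was above the 16.2% of all genes. Sums were 1943 to 2241 in GFP+ against 2018 to 2463 in RFP+ for the microglial list. For the choroid plexus they were 813 to 1023 against 946 to 2176. The 2176 was on RFP+ replicate 3, where Ttr read 1204, and the other RFP+ sums were 946 and 968. No marker of these lists was at 0 on any array. The part of these cells in the collagen differences was not tested.

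Among the GFP+ arrays, replicate 1 had the lowest endothelial signal. Kdr, a receptor of endothelial cells, read 239.5, 697 and 1052 on the GFP+ arrays, and Cldn5, a tight junction protein of brain vessels, read 452, 1548 and 1796. For 12 of the 14 endothelial markers that array was the lowest of its group, and the median deviation from its group's other arrays was -1.23 on the log2 scale. It was 0.28 for the mural markers, 8 of 13 of which were highest there, and -0.31 for the fibroblast markers. For the collagens the same deviation was -0.22 in the basement membrane class, -0.09 in the fibrillar class and 0.14 in the others. Of the 14 collagens higher in GFP+, 10 were lowest on this array, with Col4a1 at -0.40, Col4a2 at -0.42 and Col4a5 at -0.54. Of the other 30 collagens 3 were lowest there, and of the 12 neuronal markers 6 were. Without GFP+ replicate 1 all 14 passed as higher in GFP+. The log2 differences were then 3.17 for Col4a1, 2.67 for Col4a2 and 2.44 for Col4a5, against 3.04, 2.53 and 2.25 with all arrays. These genes were lowest in GFP+ on the array left out, which by itself raises their differences. The part of endothelial cells in the collagen differences was not tested.

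**Figure D4:**
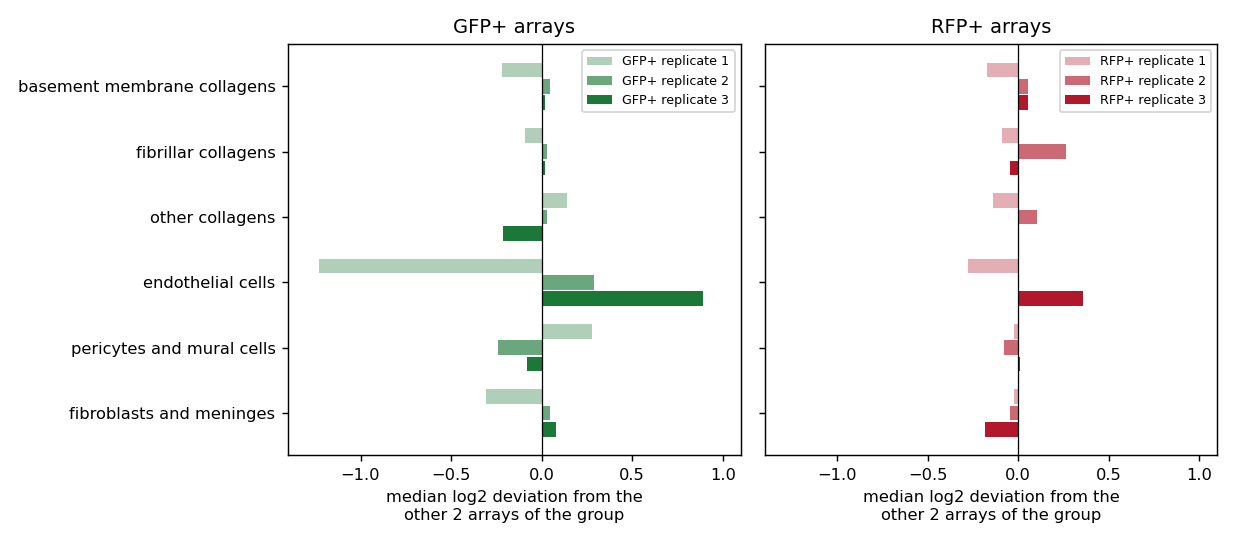
Median deviation of each array from the other 2 arrays of its group, in log2 units, for the 3 collagen classes and for marker lists of 3 other cell types. The endothelial bar of GFP+ replicate 1 reaches -1.23, while the collagen bars of the same array lie between -0.22 and 0.14.

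Genes that modify, fold and export collagen were followed as a list of 23, of which 22 were measured. Of these 9 were higher in GFP+ and 2 in RFP+, against 13.8% and 16.2% of all genes, and the median log2 difference was 0.39. Plod2, a lysyl hydroxylase that prepares collagen for cross-linking, read 736, 657 and 931 in GFP+ and 179.6, 158 and 182 in RFP+. Progenitor arrays were all high and the difference was 4.14-fold (adjusted p = 1.99e-07). Serpinh1, the collagen chaperone Hsp47, read 1801, 2022 and 1880.2 in GFP+ and 420.1, 487 and 478 in RFP+. All 6 values were above background and the groups lay 4.01-fold apart (adjusted p = 1.51e-07). Crtap, part of the complex that hydroxylates proline in collagen, read 742, 884 and 733 in GFP+ and 196, 204 and 159 in RFP+, a 3.97-fold difference (adjusted p = 2.36e-07). Sec24d, a coat protein of the vesicles that carry procollagen from the endoplasmic reticulum, went the other way. It read 189.5, 304 and 287 in GFP+ and 1191, 1240.3 and 962 in RFP+, 4.21-fold higher in the neurons (adjusted p = 3.85e-07). Colgalt1, which adds sugar to collagen, was 1.71-fold higher there (adjusted p = 0.00535). P4ha1 and Mia3, which did not pass (adjusted p-values of 0.0738 and 0.071), had adjusted p-values of 0.0352 and 0.0315 with the replicate number as a block.

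Of 14 genes for propeptide cleavage and cross-linking 12 were measured, 6 were higher in GFP+ and 2 in RFP+, against 13.8% and 16.2% of all genes, and the median was 0.39. The share higher in RFP+ was close to that of all genes. Loxl1, a lysyl oxidase relative that cross-links matrix proteins, read 1137, 1571 and 980.4 in GFP+ and 231, 244 and 263 in RFP+. The groups lay far apart, 4.67-fold (adjusted p = 1.25e-07). Loxl3, of the same family, differed 3.79-fold (adjusted p = 2.76e-07), and Pcolce, an enhancer of procollagen cleavage, differed 2.86-fold (adjusted p = 1.45e-05), both higher in GFP+. Adamts3, which cuts the amino-terminal propeptide of fibrillar procollagens, read 544, 795 and 689 in GFP+ and 2458, 2655 and 2543 in RFP+. It was 3.75-fold higher in the neurons, without overlap (adjusted p = 5.02e-07). Pxdn, chosen after its values were seen because its product joins type IV collagen molecules, was 2.07-fold higher in GFP+ (adjusted p = 3.94e-04). Tll2, a relative of the procollagen protease Bmp1 and the other gene higher in RFP+, had a difference of -0.62 with all values under the guide (adjusted p = 0.0388). Leaving out any array but GFP+ replicate 3 and RFP+ replicate 1 ended that call.

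Of 11 collagen receptors 10 were measured, 9 were higher in GFP+ (13.8% of all genes were) and 1 did not pass, with a median of 0.84. Of the 9, Itga2, Itga11 and Lair1 were under the background guide on all 6 arrays. Itga1, the alpha subunit of an integrin that binds type IV collagen, read 524, 541 and 895 in GFP+ and 19.1, 81.3 and 58.1 in RFP+. Progenitor arrays were high and neuronal arrays far under the guide, 10.3-fold apart (log2 3.36 ± 0.30, adjusted p = 4.38e-08). Mrc2, a receptor that takes up collagen for breakdown, differed 3.64-fold (adjusted p = 8.8e-07), and Ddr2, a receptor tyrosine kinase activated by fibrillar collagen, differed 2.59-fold (adjusted p = 2.42e-05). Ddr1, of the same family, read 3885, 3665 and 3197 in GFP+ and 2022, 2311 and 1834 in RFP+. Both groups were well above background and the progenitors 1.74-fold higher (adjusted p = 0.00487). Adgrg1, the receptor of type III collagen, read 4529, 3621 and 3727 in GFP+ and 2312, 2384 and 2216 in RFP+. It was 1.71-fold higher in GFP+ without overlap (adjusted p = 0.00581). Without both arrays numbered 1, the adjusted p was 0.0665 for Ddr1 and 0.0795 for Adgrg1. Itgb1, the beta subunit shared by the collagen-binding integrins, did not pass (0.63, adjusted p = 0.0623) and had an adjusted p of 0.0142 with the replicate number as a block.

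**Figure D5:**
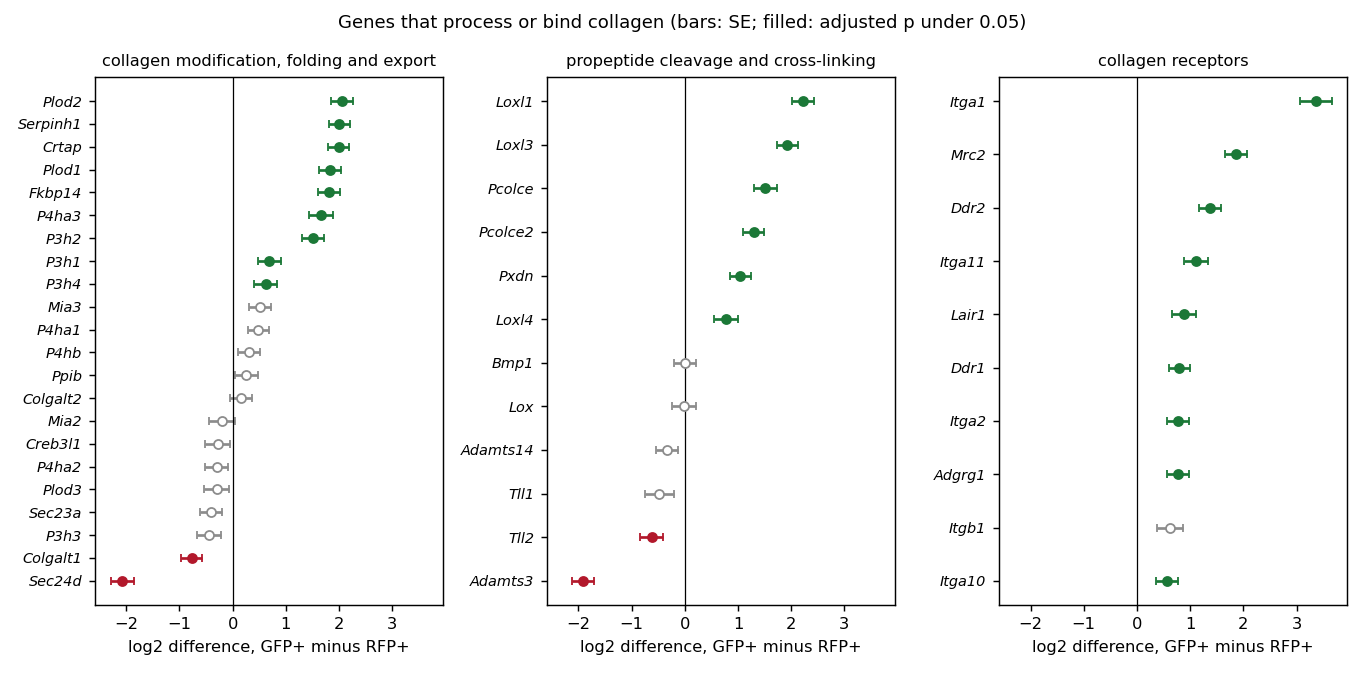
Log2 difference in intensity, GFP+ minus RFP+, with its standard error from limma (3 arrays per group), for genes that process or bind collagen. Filled points passed an adjusted p of 0.05: 9 of 22, 6 of 12 and 9 of 10 genes are higher in GFP+, with Sec24d and Adamts3 farthest to the left.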

How the data were processed

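Probe set intensities, on a linear scale, were used as deposited by the authors, 1 array per sample. The submitters' processing notes name the Affymetrix Expression Console, and no version, background correction, normalization or summarisation is given in the sources used here. Of 35557 probe sets, 21789 carried 1 gene symbol in the platform annotation, 1621 several and 12147 none. Symbols were checked by Entrez ID (21698 matched, 0 updated). Of the genes with several probe sets the brightest on average was kept, without a filter on dim genes. Sequences came from RefSeq tables on GRCm38.p6.

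The GFP+ minus RFP+ difference of log2(intensity + 16) over all 6 arrays was fitted in R 4.3.3 by lmFit and tested two-sided by eBayes (limma 3.58.1), which gave 15.4 prior degrees of freedom, with Benjamini-Hochberg adjustment over 19938 genes and a threshold of 0.05. The procedure was tested on simulated data. The median SE was 0.215, and 3 arrays per group limit the precision. Tables were made with pandas 2.3.3 and numpy 2.4.6 under Python 3.11.15, and figures with matplotlib 3.10.9.

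Members, lists and tests were chosen with earlier results of these data known. Full values were given for the 6 changed members with the largest difference in each class, those higher in RFP+ and the type IV neighbours. Array values of Col1a1, Col5a3, Col6a6, Col11a1, Col15a1, Col25a1 and Col27a1 were added after their values were seen. So were Colgalt1, Pxdn, Tll2, P4ha1, Mia3, Itgb1, Itga2, Itga11, Lair1 and the mural and fibroblast markers beyond the 2 brightest. For each pathway list the 3 largest in the main direction, the largest the other way, Serpinh1, Adgrg1 and Ddr1 were named, and of each marker list the 2 brightest genes.

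Replicate numbers come from the sample titles. Same-numbered arrays deviated together (correlations of deviations from the group means 0.204, 0.288 and 0.361, against -0.266 to 0.0042 for different numbers). These deviations sum to 0 within a group and are not independent. The numbers were taken to pair the arrays, with the unpaired fit as the main one and the replicate block as an alternative. The other alternatives were quantile normalization, median centring, filters on dim genes, averaged probe sets, array weights, a trended robust fit, other offsets, a 2-fold minimum and leaving out arrays. Fkbp10, Adamts2, Loxl2 and Gp6 are not analysed here.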

Additional observations from a re-analysis of the deposited data

How the results depend on the processing

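All 14 collagens higher in GFP+ kept that call when any of the 6 arrays, or both arrays numbered 1, was left out, and with the replicate block, quantile normalization, median centring, averaged probe sets, array weights, a trended robust fit, offsets of 1 and 64 and a 2-fold minimum. Leaving out arrays in turn gave 14 to 15 collagens higher in GFP+ and 1 to 3 higher in RFP+, with 0 to 1 in the basement membrane class, 1 to 2 in the fibrillar class, 0 to 1 among the others and 1 to 2 cleavage and cross-linking genes. Without the dimmest 30% of genes (36 collagens tested) 12 of the 14 kept the call, and Col4a6 and Col14a1 were not tested. In that setting 2 collagens were higher in RFP+ (Col15a1 and 1 fibrillar gene, 0 others), with 1 cleavage gene. Without the dimmest 50% only 11 collagens were tested, so counts fell. Then 4 were higher in GFP+ (2 basement membrane, 1 fibrillar, 1 other) and 0 in RFP+ (0 in each class). Of the 14, Col4a1, Col4a2 and Col2a1 kept the call and the rest were not tested. The other collagen was Col6a6, which did not pass in the main fit. In that setting 2 cleavage genes were higher in GFP+ and 1 in RFP+, with 4 receptors. A 2-fold minimum left 2588 of all genes, 1 collagen higher in RFP+ (0 basement membrane, 1 fibrillar, 0 other), 1 modification gene and 1 cleavage gene higher in RFP+, and 4 receptors. Without both arrays numbered 1, 3850 genes were called, 2 collagens were higher in RFP+ (1 fibrillar, 0 other), with 1 cleavage gene and 5 receptors, and fewer samples entered that fit. Basement membrane collagens higher in RFP+ numbered 2 with the replicate block (fixed), 3 with the replicate block (random), 2 with quantile normalization and 2 with median centring. The fixed block changed no other call among the collagens. The random block gave 16 collagens higher in GFP+ (the 14 with Col6a6 and Col27a1) and 6 higher in RFP+ (the 4 with Col15a1 and Col4a4). Other collagens higher in RFP+ numbered 0 and cleavage genes 1 with quantile normalization, with the trended robust fit and with an offset of 64. Where no smaller set of genes or samples was used, the cause was not tested. Of 563 values of 31 named genes under an alternative, 537 kept their call, 24 lost it, 2 gained it and 0 reversed. Signal limits these results: 11 of the 44 collagens were near background in both groups, as were 6647 of all 19938 genes.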

Other observations

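A second probe set was annotated to Col6a5 and to Col6a6. For Col6a5 its log2 difference was -0.05, against 0.06 for the set used, and for Col6a6 it was 0.18 against 0.48. Ttr, a marker of the choroid plexus, read 1204 on RFP+ replicate 3 and between 8.03 and 61.8 on the other 5 arrays.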
